A study of Danio rerio with 5 samples.

Results

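The transcripts of zebrafish larvae irradiated as embryos with 15 Gy of protons were compared with those of larvae irradiated with 12 Gy. The comparison took the arrays by their labelled dose and used 4 of the 5 arrays of the study, 1 at 12 Gy and 3 at 15 Gy. All animals were wild type, of the AB strain, and came from several clutches that were pooled. They were irradiated at 24 h after fertilization with a beam of 8 MeV/u at 7.5 Gy/min, with absorbed dose in gray (Gy), and were sampled at 7 days after fertilization. Each array received RNA from a pool of 20 whole animals drawn from a group of 60 embryos per dose. Each value is therefore an average over animals and over all tissues, and fewer cells of a type cannot be told apart from less RNA per cell. The design describes a single group of embryos per dose, and no source used here states that the 15 Gy pools were irradiated apart, so p-values measured only the spread among these pools. The 12 Gy group had 1 array, and its own spread could not be measured. The unirradiated array was not used.

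Protons deposit energy densely along their path and break DNA. Damaged cells stop dividing, repair the breaks or die, and injured tissue calls in inflammatory cells. The larva at this age also runs a circadian clock in nearly every tissue, in which the Clock and Bmal proteins switch on their own repressors, the period and cryptochrome genes, and in fish several of these genes respond directly to light. The larval skin is a layered epithelium rich in keratins, and the liver secretes apolipoproteins that carry lipid. These systems gave the gene groups described below. The groups held 1441 genes in 42 lists, and the lists were chosen with earlier results of these data known.

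The distances of the 12 Gy array from the 15 Gy arrays were close to those among the 15 Gy arrays. The standard deviation (SD) of the log2 differences over 15502 probe sets was 0.488, 0.287 and 0.365 between the 12 Gy array and 15 Gy replicates 1, 2 and 3. Among the 15 Gy arrays it was 0.477 between replicates 1 and 2, 0.344 between 1 and 3, and 0.250 between 2 and 3. Replicate 2 thus had more probe sets at least 2-fold apart from replicate 1 of its own dose (776) than from the 12 Gy array (168). From replicate 3 it had fewer (34). For 47.7% of probe sets, the 12 Gy value fell inside the range of the 15 Gy arrays.

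**Figure D1:**
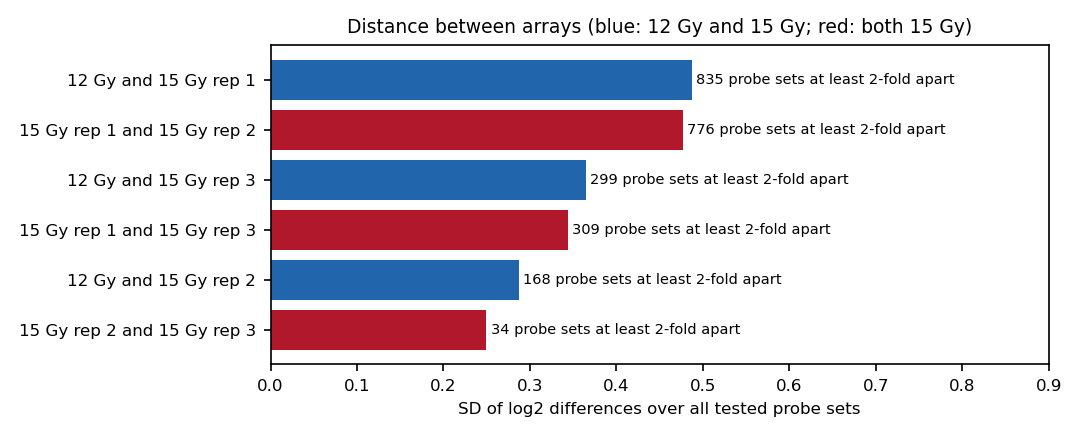
Standard deviation of the log2 differences between each pair of arrays (horizontal axis, from 0), with the number of probe sets at least 2-fold apart written beside each bar. Blue bars pair the 12 Gy array with a 15 Gy array and red bars pair 2 arrays at 15 Gy. The widest red bar, 0.477, is longer than 2 of the 3 blue bars.

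Measures of RNA quality and of hybridization differed among the arrays. Dividing the 5′ by the 3′ GAPDH control probe set gave 0.177 in the 12 Gy array, 0.242 in 15 Gy replicate 1, 0.189 in replicate 2 and 0.228 in replicate 3. The actin ratio was 0.0354 at 12 Gy and 0.129, 0.0350 and 0.108 at 15 Gy. The bacterial and phage transcripts added for hybridization had 9 probe sets. All 9 were brighter in the 12 Gy array than in every 15 Gy array, by a median of 1.44-fold. The share of dim genes in the 12 Gy array varied among the tissue lists. Below its lower quartile (log2 4.69) lay 1409 of 8793 named genes. Few fast muscle (0 of 38), neuronal (1 of 34) and epidermal (3 of 50) genes lay there. More were dim among photoreceptor (8 of 40), exocrine pancreas (5 of 20), lens (3 of 11) and leukocyte (6 of 22) genes. The same held for red blood cell (7 of 24) and pigment cell (7 of 18) genes.

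Tested with limma and adjusted by Benjamini-Hochberg over the whole array, 1 of 15502 probe sets (0.00645%) passed an adjusted p of 0.05. It carried the symbol copb2, a subunit of the coatomer that coats transport vesicles, and its adjusted p was 0.0285. The probe set stood at 8.84 at 12 Gy and at 2.35, 2.36 and 2.29 in 15 Gy replicates 1, 2 and 3. These 15 Gy values lay near the floor of the arrays, far below the lower quartiles (4.60, 4.70 and 4.60). The lowest intensities of the 3 arrays were 4.01, 4.02 and 4.13 before log2. The small spread behind the call was thus a spread of values near the floor. The brightest copb2 probe set, by contrast, stood at 7.81 at 12 Gy and at 8.07, 7.80 and 8.14 at 15 Gy. The call thus rested on a single probe set of the gene. The call was lost without any 1 of the 3 arrays at 15 Gy, when 0 probe sets passed, and 0 named genes passed when each was represented by its brightest probe set.

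At an unadjusted p of 0.05 the same test passed 1383 probe sets (8.92%), of which 665 were higher (4.29% of all) and 718 lower (4.63%) at 15 Gy. Without replicate 3 this count was 568. Without replicate 1, 2 or 3 the 665 became 698, 1074 and 256, and the 718 became 791, 811 and 312. Each of the 3 arrays at 15 Gy exceeded the 12 Gy array by 2-fold or more in 34 probe sets (0.219%) and fell short of it by as much in 40 (0.258%). The 34 became 54 without replicate 1 and 129 without replicate 2, and the 40 became 72 without replicate 2. Among 8793 named genes, 31.3% lay higher and 21% lower than at 12 Gy in all 3 arrays at 15 Gy, and 8.85% had an unadjusted p under 0.05 (5.36% higher and 3.49% lower). Of these genes, 0.262% were at least 2-fold above 12 Gy in all 3 arrays jointly, and 0.193% were as far below. These shares are the background for the counts below, in which no gene passed the adjusted threshold.

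Leaving out symbols that are only clone names, the 15 genes farthest below the 12 Gy array included cryptochrome and repressor genes of the circadian clock and genes that neuronal activity switches on. The cryptochrome gene cry2 stood at 8.58 at 12 Gy and at 6.99, 7.00 and 6.83 in 15 Gy replicates 1, 2 and 3. The 3 arrays at 15 Gy lay within 0.18 of each other, and none overlapped the 12 Gy value. The clock repressor gene bhlhe41 stood at 7.57 at 12 Gy and at 6.25, 5.84 and 6.01 at 15 Gy. The transcription factor gene npas4a, which neurons switch on when active, stood at 8.06 at 12 Gy and at 5.75, 6.51 and 6.09 at 15 Gy. By fold, 12 Gy exceeded the 15 Gy mean 3.12 times for cry2, 2.91 times for bhlhe41 and 3.85 times for npas4a, with limma adjusted p of 0.513, 0.520 and 0.520.

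The gene pik3ip1, an inhibitor of phosphoinositide 3-kinase, stood at 9.30 at 12 Gy and at 7.63, 7.44 and 7.48 at 15 Gy. The 12 Gy value was 3.44-fold above the 15 Gy mean (log2 difference −1.78, SE 0.11). The tyrosine aminotransferase gene tat, a liver enzyme gene that glucocorticoids induce in mammals, stood at 6.10 at 12 Gy and at 3.78, 4.57 and 4.65 at 15 Gy, where it lay below the lower quartile in replicates 1 and 2. The remaining genes on this side were txlnba, zp3a.2, ptgdsb.2, plekhh1, tnpo2a, eef2a.1, oaz2b, egr4, chka and mknk2b. Their log2 differences ran from −1.99 for the prostaglandin D synthase family gene ptgdsb.2 to −1.20 for the choline kinase gene chka. Of these, txlnba and eef2a.1 were dim, with 15 Gy means of 3.31 and 3.25. The dimmest of the 3 mknk2b probe sets overlapped between the doses, at 8.26 at 12 Gy and 8.71, 7.18 and 7.65 at 15 Gy. The others were lower in every 15 Gy array.

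On the other side, again without clone names, ddit4, an inhibitor of growth signalling through mTOR that stress induces, was farthest above the 12 Gy array. It stood at 3.67 at 12 Gy, which is below the lower quartile of that array, and at 7.14, 6.07 and 6.10 in 15 Gy replicates 1, 2 and 3. The 15 Gy mean was 6.81-fold higher (log2 difference 2.77, SE 0.56, limma adjusted p = 0.520). Keratin and ictacalcin genes of the skin and apolipoprotein genes were among the next. The genes were icn2, s100w, apoa2, krt1-19e, krt4, the calcium buffer gene pvalb5, icn, anxa6, apoea, fxyd11, fstl1b, the vitamin B12 carrier gene tcnbb, fabp1b.1 and the cartilage collagen gene col9a1b. Their log2 differences lay between 1.23 for col9a1b and 1.96 for anxa6.

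**Figure D2:**
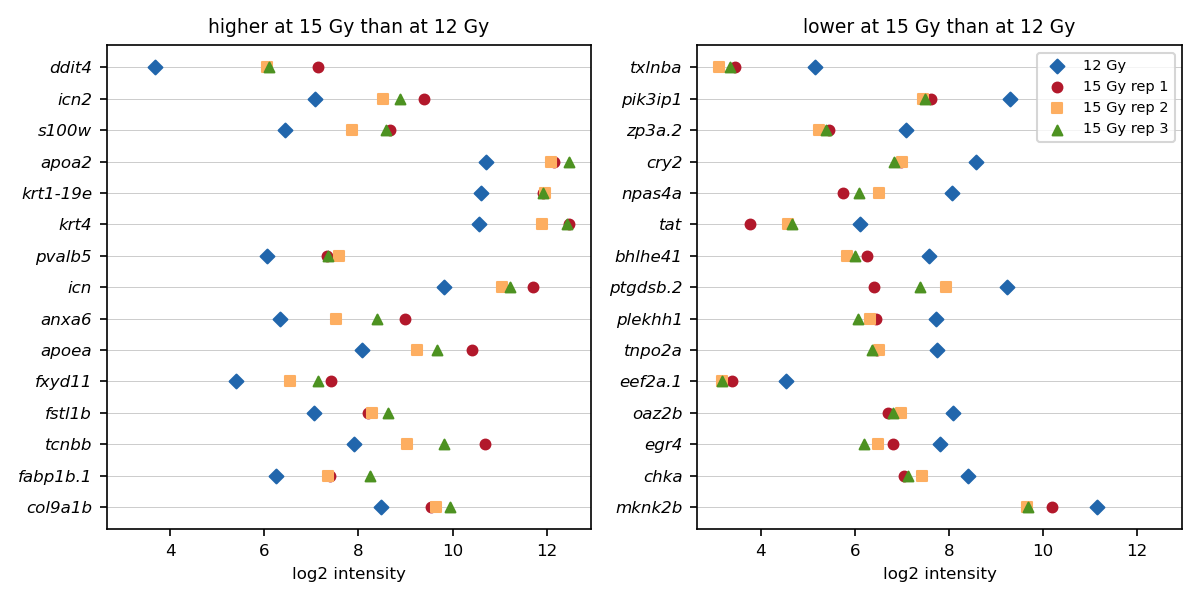
Log2 intensity in each array for the 15 genes, clone names left out, farthest above (left) and the 15 farthest below (right) the 12 Gy array, ranked by the smallest of the 3 differences. Blue diamonds are the 12 Gy array, and circles, squares and triangles are 15 Gy replicates 1, 2 and 3. In each row the diamond stands outside the 15 Gy range, and for ddit4 it stands at 3.67 against 6.07 to 7.14.

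Circadian clock genes lay lower at 15 Gy in 20 of 34 cases (58.8%) in all 3 arrays and higher in 2, against 21% and 31.3% of named genes. In replicates 1, 2 and 3 the list medians were −0.23, −0.12 and −0.27, against 0.04, 0.01 and 0.00 over all named genes. At an unadjusted p of 0.05, 10 of the 34 were lower (3.49% of named genes were) and 1 was higher. Without replicate 1, 2 or 3 the 10 became 10, 9 and 5. Over the whole array, the 718 lower probe sets became 791, 811 and 312. A stricter count, chosen after the values were seen, asked that the smallest difference exceed the range of the 15 Gy arrays. It was met downward by 10 of the 34 clock genes and by 7.05% of named genes, and upward by 1 clock gene and 9.84% of named genes. Over all probe sets the shares were 9.06% downward and 8.34% upward.

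The members of the clock farthest below 12 Gy were repressors, light-responsive genes and output factors. Besides cry2 and bhlhe41, the related repressor gene bhlhe40 stood at 10.64 at 12 Gy and at 9.93, 9.51 and 9.58 at 15 Gy. The clock repressor gene ciarta stood at 9.27 at 12 Gy and at 8.30, 8.15 and 8.33 at 15 Gy. The photolyase-related gene cry-dash stood at 7.09 at 12 Gy and at 6.11, 6.13 and 6.14 at 15 Gy. The 15 Gy arrays spanned 0.18 for ciarta and 0.036 for cry-dash, whereas for bhlhe40 they ran from 9.51 to 9.93. The part of RNA quality in the clock differences was not tested.

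The period gene per2, which light induces in zebrafish, stood at 9.81 at 12 Gy and at 8.84, 9.13 and 8.88 at 15 Gy. The leucine zipper gene tefa, which binds promoters of clock output genes, stood at 9.50 at 12 Gy and at 8.62, 8.62 and 8.69 at 15 Gy. The related repressor gene nfil3-6 stood at 7.16 at 12 Gy and at 5.85, 6.32 and 6.17 at 15 Gy. The genes cry1b and cry5, of the family of cryptochromes and photolyases, were also lower, with differences of −0.62 and −0.34.

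The activator genes of the clock were split. The gene bmal1a stood at 6.12 at 12 Gy and at 6.52, 6.59 and 6.47 at 15 Gy, a log2 difference of 0.40 (SE 0.09). Of the Clock genes, clocka differed by −0.37 and clockb by −0.20, with unadjusted p of 0.0900 and 0.288. The dim period gene per3 overlapped between the doses, and per1a was not analysed here. The hour at which the larvae were collected is not given in the sources used here, so its part in these differences was not tested.

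**Figure D3:**
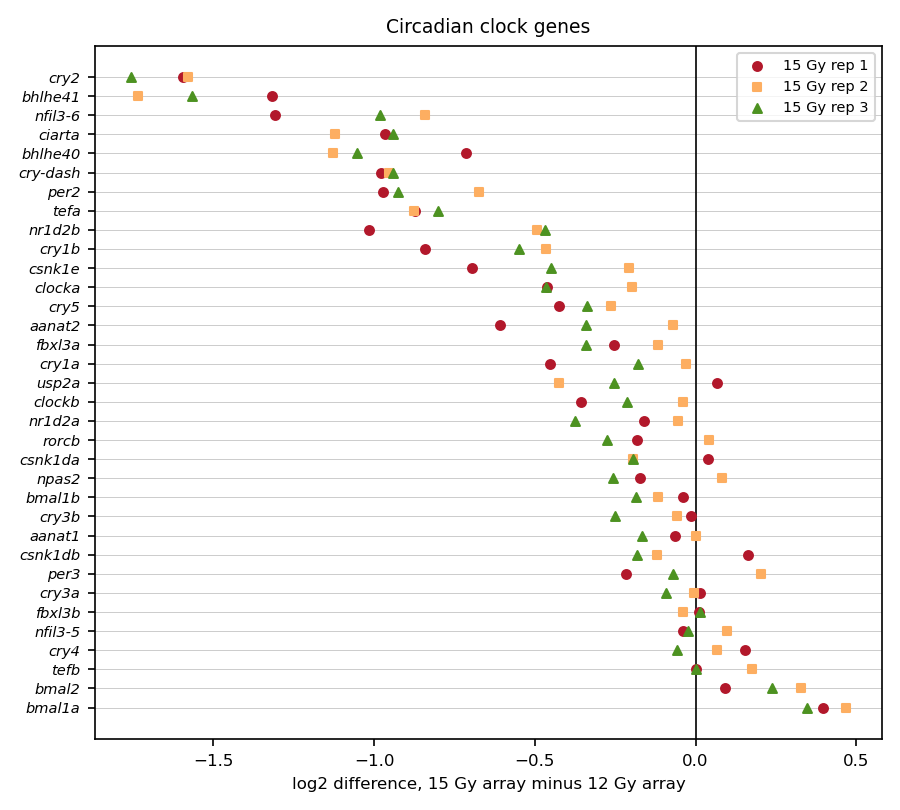
Log2 difference of each 15 Gy array from the 12 Gy array (horizontal axis) for 34 circadian clock genes. Circles, squares and triangles are 15 Gy replicates 1, 2 and 3, and the vertical line marks no difference. The 3 symbols of cry2 lie between −1.76 and −1.58, and those of bmal1a lie to the right of the line.

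Immediate early genes, which cells switch on within minutes of a stimulus, were mixed, with 9 of 24 lower and 6 higher in all 3 arrays. Of named genes, 21% were lower and 31.3% higher. Besides npas4a, egr4 stood at 7.81 at 12 Gy and at 6.81, 6.50 and 6.19 at 15 Gy. The AP-1 subunit gene fosab stood at 10.62 at 12 Gy and at 9.88, 9.72 and 9.89 at 15 Gy. The nuclear receptor gene nr4a1 lay in the other direction, 1.46-fold higher at 15 Gy. The AP-1 gene jun (difference −0.28) lay below 12 Gy in all 3 arrays, whereas junba (−0.24) and junbb (0.06) overlapped between the doses.

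Genes of the glucocorticoid and fasting response had 15 of 36 members lower and 6 higher in all 3 arrays, against 21% and 31.3% of named genes. The list medians were −0.09, −0.16 and −0.01 in replicates 1, 2 and 3. After tat, the pyruvate dehydrogenase kinase gene pdk2b was the farthest below, at 8.13 at 12 Gy and at 7.23, 6.76 and 6.90 at 15 Gy. The lipid phosphatase gene lpin1a differed by −0.78. The glucocorticoid target gene tsc22d3 differed by −0.33, whereas fkbp5 (0.16) and klf9 (0.00), which glucocorticoids also induce, overlapped between the doses. The member farthest above was ddit4.

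Genes that respond to DNA damage by arresting the cell cycle or starting cell death lay on both sides of the 12 Gy array. In this list 4 of 23 genes (17.4%) lay higher and 8 (34.8%) lower in all 3 arrays, against 31.3% and 21% of named genes. Of the 23, 11 overlapped between the doses, against 4194 of 8793 named genes. At an unadjusted p of 0.05, ddit4 was higher and rrm2b lower, while 5.36% of named genes were higher and 3.49% lower. The ubiquitin ligase gene mdm2 stood at 8.22 at 12 Gy and at 9.01, 8.22 and 8.50 in 15 Gy replicates 1, 2 and 3. The cyclin gene ccng1 stood at 12.04 at 12 Gy and at 12.26, 11.95 and 12.22 at 15 Gy. For both genes, replicate 2 was no higher than the 12 Gy array and replicate 1 was the highest.

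The stress sensor gene gadd45aa stood at 5.69 at 12 Gy and at 6.79, 5.81 and 6.42 at 15 Gy. The death gene baxa stood at 8.19 at 12 Gy and at 8.53, 8.13 and 8.35 at 15 Gy. The limma differences were 0.35 for mdm2 (SE 0.37), 0.10 for ccng1 (SE 0.17), 0.64 for gadd45aa (SE 0.46) and 0.14 for baxa (SE 0.19). The spread among the 15 Gy pools was thus as large as the difference between the doses for mdm2, ccng1 and baxa. The death gene bbc3 was lower at 15 Gy (−0.47), and the ribonucleotide reductase gene rrm2b (−0.87) was dim in every array. The arrest gene cdkn1a was not analysed here.

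DNA repair genes and cell cycle genes had medians close to 0. Of 40 repair genes, 7 lay higher and 5 lower in all 3 arrays, against 31.3% and 21% of named genes. The repair list medians were 0.00, 0.06 and −0.02 in replicates 1, 2 and 3. Of 78 cell cycle and replication genes, 18 lay higher and 13 lower, beside the same shares, with list medians of −0.12, 0.09 and 0.03. In 59 of the 78, replicate 1 was the lowest of the 15 Gy arrays. The sliding clamp gene pcna stood at 10.46 at 12 Gy and at 10.45, 10.89 and 10.80 at 15 Gy.

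Inflammation genes did not separate the doses either, with 2 of 24 higher and 6 lower in all 3 arrays, against 31.3% and 21% of named genes. The secreted metallopeptidase gene mmp9 stood at 12.08 at 12 Gy and at 12.47, 11.70 and 11.96 at 15 Gy. The collagenase gene mmp13a stood at 10.58 at 12 Gy and at 11.91, 10.27 and 10.71 at 15 Gy. Both 12 Gy values lay inside the 15 Gy range. In 20 of the 24 genes, replicate 1 was the highest of the 15 Gy arrays.

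The exceptions in this list lay on both sides. The immunoresponsive gene irg1l stood at 9.04 at 12 Gy and at 10.63, 9.76 and 10.57 at 15 Gy, a 2.43-fold difference. The gene nfkbiaa, an inhibitor of NF-κB, stood at 10.39 at 12 Gy and at 9.84, 9.52 and 9.57 at 15 Gy. Among 22 leukocyte genes, 9 lay lower and 4 higher in all 3 arrays, against 21% and 31.3% of named genes. The neutrophil peroxidase gene mpx differed by −0.31 and the pan-leukocyte gene ptprc by −0.26, whereas the lysozyme gene lyz differed by 0.87. The interferon list mostly overlapped, with 2 of 12 genes higher and 2 lower, against 31.3% and 21% of named genes.

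Epidermal genes had a median of 0.65 over the mean of the 15 Gy arrays, the highest of the 42 lists, and medians of 0.95, 0.33 and 0.78 in replicates 1, 2 and 3. In replicate 2 the photoreceptor list (0.37) and in replicate 3 the exocrine pancreas list (0.89) had higher medians. Without replicate 1 the pancreas list (0.65) also passed the epidermal list (0.57). Without the 30% dimmest probe sets the lens list (0.77) passed it (0.71). In all 3 arrays, 38 of 50 genes (76.0%) lay higher and 1 lower, against 31.3% and 21% of named genes. At an unadjusted p of 0.05, 13 were higher (5.36% of named genes were) and 0 lower. Without replicate 1, 2 or 3 the 13 became 8, 26 and 4. Over the whole array, the 665 higher probe sets became 698, 1074 and 256. The list median stayed between 0.57 and 0.81 under the alternatives of scaling, filtering and replicate choice that were run.

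The members farthest above were keratins and small calcium-binding proteins of the skin. The keratin gene krt4 stood at 10.57 at 12 Gy and at 12.47, 11.90 and 12.44 at 15 Gy, a 3.23-fold difference. The basal keratin gene krt5 stood at 9.97 at 12 Gy and at 10.92, 10.89 and 11.04 at 15 Gy. The keratin gene krt1-19e stood at 10.61 at 12 Gy and at 11.93, 11.96 and 11.93 at 15 Gy, and a dimmer probe set of the gene differed by 2.87. The 15 Gy arrays were nearly equal for krt5 and the brightest krt1-19e probe set, whereas the dimmer one stood at 10.06, 8.82 and 9.73.

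The ictacalcin genes icn and icn2, of the S100 family, were 2.82-fold and 3.62-fold higher at 15 Gy. For icn2 the array values were 7.08 at 12 Gy and 9.39, 8.51 and 8.89 at 15 Gy. These 2 genes are close relatives, and their probe sets may share signal. The epithelial adhesion gene epcam stood at 8.81 at 12 Gy and at 10.72, 9.49 and 10.27 at 15 Gy. Other epithelial genes overlapped between the doses, among them the epithelial cadherin gene cdh1 (difference 0.07) and the simple-epithelium keratin gene krt18b (0.08). Replicate 1 was the highest of the 15 Gy arrays for 33 of the 50 genes. The list medians increased from the 12 Gy array through replicates 2 and 3 to replicate 1. That is the order of the GAPDH ratio (0.177, 0.189, 0.228 and 0.242). The actin ratio differed in placing replicate 2 (0.0350) just below the 12 Gy array (0.0354). The part of either ratio in the result was not tested.

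**Figure D4:**
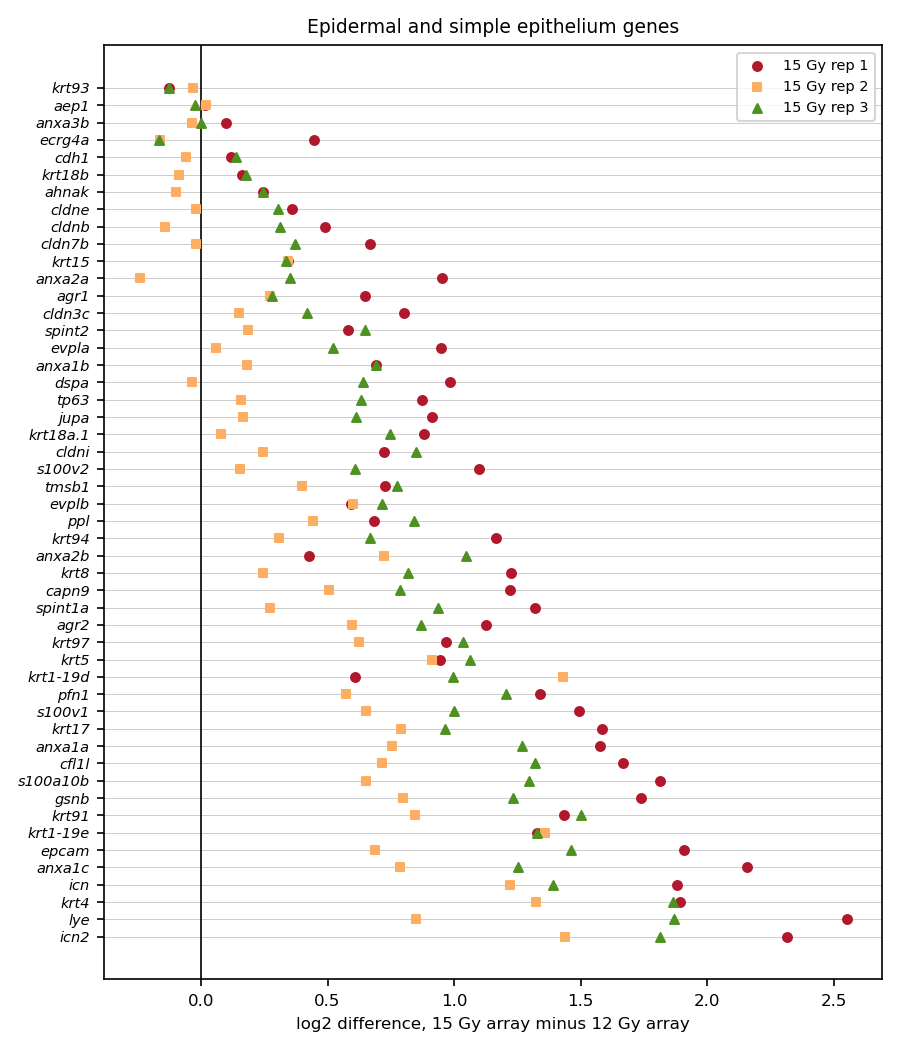
Log2 difference of each 15 Gy array from the 12 Gy array (horizontal axis) for 50 epidermal and simple epithelium genes. Circles, squares and triangles are 15 Gy replicates 1, 2 and 3, and the vertical line marks no difference. For 38 of the 50 genes every symbol lies to the right of the line, with those of replicate 2 usually nearest to it.

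Genes of plasma proteins from the liver lay on both sides. In all 3 arrays, 23 of 51 (45.1%) lay higher and 7 (13.7%) lower, against 31.3% and 21% of named genes. Of the 51, 21 overlapped between the doses, against 4194 of 8793 named genes. At an unadjusted p of 0.05, 8 were higher and 1 lower, against 5.36% and 3.49% of named genes. Without replicate 1 these became 2 and 5, without replicate 2 they became 11 and 1, and without replicate 3 they became 6 and 1. Over the whole array, the 665 higher probe sets became 698, 1074 and 256, and the 718 lower became 791, 811 and 312. The members farthest above were apolipoproteins. The high-density lipoprotein gene apoa2 was 2.91-fold higher at 15 Gy, and apoa1a stood at 9.57 at 12 Gy and at 11.32, 10.54 and 11.02 at 15 Gy. The lipase cofactor gene apoc2 was 2.42-fold and apoea 3.23-fold higher.

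The plasminogen gene plg, whose product dissolves clots, lay in the other direction, at 7.73 at 12 Gy and at 6.88, 6.87 and 6.75 at 15 Gy. The hepatocyte gene fabp10a stood at 8.04 at 12 Gy and at 5.98, 7.72 and 7.84 at 15 Gy, with replicate 1 far below the other arrays. In replicate 1 the hepatocyte gene was thus at its lowest while apoa1a was at its highest.

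Genes of the respiratory chain and of the proteasome lay higher at 15 Gy by small amounts in most members. Of 67 respiratory chain genes, 56 (83.6%) lay higher and 1 lower in all 3 arrays, against 31.3% and 21% of named genes. The list medians were 0.65, 0.17 and 0.57 in replicates 1, 2 and 3. Of 41 proteasome genes, 35 (85.4%) lay higher and 0 lower, with list medians of 0.60, 0.19 and 0.51. The count at an unadjusted p of 0.05 depended on the replicates. For the respiratory chain it was 4 of 67, all higher, or 0, 50 and 1 without replicate 1, 2 or 3. For the proteasome it was 5 of 41, all higher, or 1, 26 and 1. Of named genes, 5.36% were higher at that p. Over the whole array, 665 probe sets were higher, or 698, 1074 and 256 without replicate 1, 2 or 3.

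The ATP synthase gene atp5mc1 differed by 0.84, with 11.14, 10.99 and 11.29 in the 15 Gy arrays. The proteasome ATPase gene psmc4 stood at 8.84 at 12 Gy and at 9.65, 9.38 and 9.77 at 15 Gy, and the assembly factor gene pomp was 1.41-fold higher. In both lists replicate 2 lay nearest to the 12 Gy array, and the medians followed the order of the GAPDH ratio. Its part was not tested.

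Antioxidant genes followed the same direction, with 28 of 42 (66.7%) higher and 3 lower in all 3 arrays, against 31.3% and 21% of named genes. The peroxiredoxin gene prdx2 stood at 9.91 at 12 Gy and at 10.58, 10.50 and 10.65 at 15 Gy, and the glutathione transferase family gene mgst3a differed by 0.86. The glutathione peroxidase genes gpx1a (−0.12) and gpx1b (−0.47) lay on the other side. Genes of vesicle traffic and protein entry into the endoplasmic reticulum had 38 of 63 (60.3%) higher and 4 lower, beside the same shares of named genes. In this list 9 were higher and 0 lower at an unadjusted p of 0.05, against 5.36% and 3.49% of named genes. The 9 became 4, 17 and 1 without replicate 1, 2 or 3. Over the whole array, the 665 higher probe sets became 698, 1074 and 256. The oligosaccharyltransferase subunit gene krtcap2 stood at 7.36 at 12 Gy and at 8.54, 8.19 and 8.43 at 15 Gy. In the vesicle and antioxidant lists the medians followed the order of the GAPDH ratio. Its part was not tested.

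Splicing genes had 38 of 70 (54.3%) higher and 7 lower in all 3 arrays, against 31.3% and 21% of named genes. The list medians were 0.08, 0.13 and 0.13 in replicates 1, 2 and 3. The median over their mean was 0.12, and was 0.058 under quantile normalization and 0.048 under cyclic loess. At an unadjusted p of 0.05, 12 were higher and 0 lower, against 5.36% and 3.49% of named genes. The 12 became 9, 9 and 3 without replicate 1, 2 or 3. Over the whole array, the 665 higher probe sets became 698, 1074 and 256. The core snRNP gene snrpd3 stood at 5.49 at 12 Gy and at 6.41, 6.16 and 6.44 at 15 Gy, and the exon junction gene magoh was 1.52-fold higher. Ribosomal protein genes had 40 of 71 (56.3%) higher and 10 lower in all 3 arrays, by small amounts, against 31.3% and 21% of named genes. Their median of 0.04 turned to −0.03 under cyclic loess. Chaperone genes had 18 of 36 higher and 4 lower, beside the same shares of named genes. The inducible gene hsp70.3 stood at 10.42 at 12 Gy and at 10.91, 9.17 and 9.93 at 15 Gy. That gene has near-identical copies, so its probe set may read several of them. The heat shock factor gene hsf2 (−0.70) and the co-chaperone gene bag2 (−1.09) were lower at 15 Gy.

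Genes of the retina and of neurons varied more among the 15 Gy pools than between the doses. Photoreceptor genes had list medians of −1.16, 0.37 and 0.01 in replicates 1, 2 and 3. Of these genes, 33 of 40 overlapped between the doses, against 4194 of 8793 named genes. The blue cone opsin gene opn1sw2 stood at 9.28 at 12 Gy and at 7.13, 11.36 and 10.55 at 15 Gy. The 12 Gy value lay between replicate 1 and the other pools, as it did for the green cone opsin gene opn1mw1 and the cone transducin gene gnat2. Replicate 1 was the lowest of the 15 Gy arrays for 38 of the 40 genes.

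Neuronal genes had list medians of −1.41, 0.24 and −0.16, and replicate 1 was the lowest for 33 of 34. The neuronal RNA-binding gene elavl3 stood at 9.82 at 12 Gy and at 8.41, 9.49 and 9.13 at 15 Gy. The synaptic gene snap25a stood at 10.31 at 12 Gy and at 8.86, 10.28 and 9.80 at 15 Gy. The GABA synthesis gene gad1b stood at 8.75 at 12 Gy and at 6.36, 9.27 and 8.64 at 15 Gy. Without replicate 1 the neuronal median over the other 15 Gy arrays was 0.04, and the photoreceptor median was 0.21.

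Glial genes were lower at 15 Gy in 11 of 18 cases (61.1%) in all 3 arrays and higher in 3 (16.7%). Of named genes, 21% were lower and 31.3% higher. The glial list medians were −0.74, −0.11 and −0.13. The astroglial filament gene gfap stood at 8.86 at 12 Gy and at 8.10, 8.01 and 8.23 at 15 Gy. The glial calcium-binding gene s100b stood at 6.62 at 12 Gy and at 5.88, 5.89 and 5.88 at 15 Gy. These 2 were the members lower at an unadjusted p of 0.05, and 0 were higher, against 3.49% and 5.36% of named genes. Without replicate 1 the list counts became 4 lower and 1 higher, and without replicate 2 they became 2 and 2. Over the whole array, the 718 lower probe sets became 791 and 811, and the 665 higher became 698 and 1074. The glutamine synthetase gene glula stood at 11.42 at 12 Gy and at 9.51, 10.65 and 10.45 at 15 Gy, whereas the myelin gene mbpa lay below 12 Gy in every 15 Gy array and mbpb (0.67) above it.

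The digestive enzyme and lens genes with the largest differences varied among the 15 Gy pools, with replicate 3 the highest. The trypsin gene prss1 stood at 6.76 at 12 Gy and at 7.38, 8.50 and 9.44 in 15 Gy replicates 1, 2 and 3. The chymotrypsin gene ctrb.1 stood at 5.34 at 12 Gy and at 5.61, 7.00 and 8.61 at 15 Gy. The lens crystallin gene cryba4 stood at 7.90 at 12 Gy and at 9.74, 8.87 and 10.49 at 15 Gy. Of 20 pancreas genes, 7 lay higher and 1 lower in all 3 arrays, and 12 overlapped between the doses. The pancreas list medians were −0.04, 0.32 and 0.89 in replicates 1, 2 and 3. Of 11 lens genes, 4 lay higher and 2 lower, and 5 overlapped, with list medians of 0.00, 0.03 and 0.00. Of named genes, 31.3% lay higher and 21% lower, and 4194 of 8793 overlapped. In both lists 0 genes passed limma's test at an adjusted p of 0.05, and 0 at an unadjusted p of 0.05. Of named genes, 8.85% had an unadjusted p under 0.05.

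Cartilage and matrix genes had 18 of 37 (48.6%) higher and 4 lower in all 3 arrays, against 31.3% and 21% of named genes. Their list median was 0.26, and was 0.13 under quantile normalization. The collagen gene col9a1b stood at 8.48 at 12 Gy and at 9.55, 9.65 and 9.94 at 15 Gy, and the fin fold gene and1 was 1.85-fold higher. Among red blood cell genes, 7 of 24 (29.2%) lay higher and 3 (12.5%) lower, against 31.3% and 21% of named genes. The red blood cell list median was 0.14, and 14 of the 24 overlapped between the doses, against 4194 of 8793 named genes. The globin gene hbae3, the member with the largest difference (0.99), stood at 11.19 at 12 Gy and at 12.19, 12.09 and 12.26 at 15 Gy. Fast muscle genes had list medians of 0.23, −0.38 and 0.07, with 2 of 38 higher and 8 lower, beside the same shares of named genes. Over the 42 lists, the median lay above the 12 Gy array in all 3 arrays for 16 and below it for 5. For 12 lists the medians increased from the 12 Gy array through replicates 2 and 3 to replicate 1. That is also the order of the GAPDH ratio, whereas the actin ratio placed replicate 2 (0.0350) just below the 12 Gy array (0.0354). The part of either ratio was not tested.

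**Figure D5:**
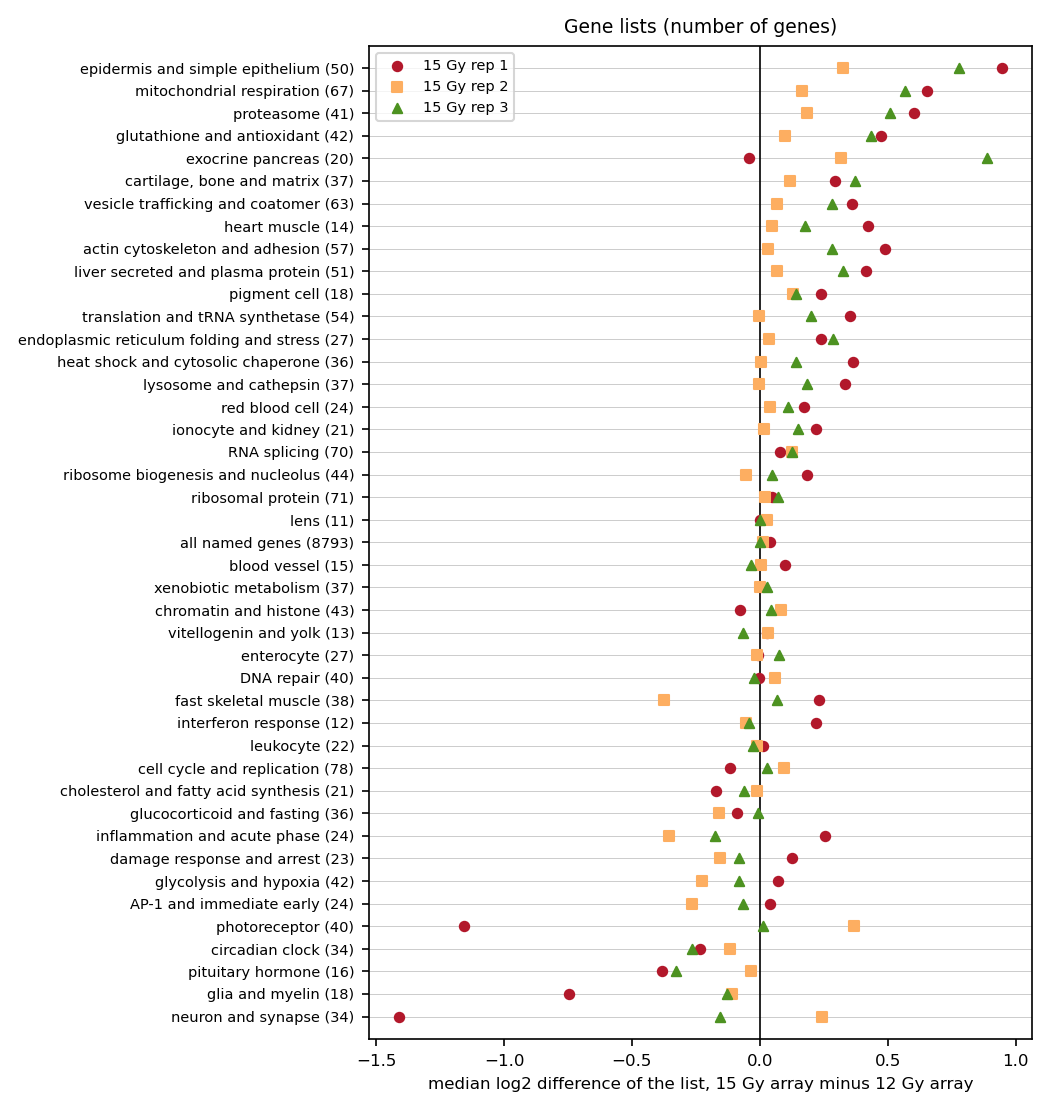
Median log2 difference of each gene list from the 12 Gy array (horizontal axis) in 15 Gy replicates 1, 2 and 3 (circles, squares and triangles), with the number of genes in brackets and all named genes as a row. Epidermal genes lie at 0.33 to 0.95, and their circle is the farthest right of the circles. The neuronal and photoreceptor circles lie at −1.41 and −1.16, apart from the squares and triangles of the same rows.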

How the data were processed

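Biotin-labelled cRNA from 6 µg of total RNA was hybridized to Affymetrix arrays, per the labels' protocols. Per the submitters' processing notes the authors used RMA. No version or software of RMA is named in the sources. The deposited table holds a linear intensity for each probe set in each array. RMA corrects background and equalizes quantiles, so it can shrink differences of dim probe sets. Depth has no counterpart on arrays, and their number limits the precision.

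Intensities were turned to log2 without a constant. After 115 control probe sets were left out, 15502 were tested with limma 3.58.1 in R 4.3.3, two-sided, with a mean per dose. The residual degrees of freedom (2) rest on the arrays at 15 Gy, to which the prior added 1.20. The 12 Gy array was assumed to vary like them. Values were identical in all 3 arrays at 15 Gy in 174 probe sets, which lowers their spread. A single symbol was listed for 10795 probe sets, several for 135 and no entry for 4572. Symbols came from the platform table, updated through Entrez identifiers with RefSeq names (assembly GRCz12tu), and gave 8793 genes, each represented by its brightest probe set.

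Genes named in the text were, clone names left out, the 15 on each side with the largest smallest difference over the 3 arrays, up to 5 members of a list and its defining members, and 8 fixed genes. Members and lists were chosen with earlier results of these data known. The test was also run on simulated data for 15 Gy against 12 Gy with 15502 probe sets. It recovered 14% of changes of 1 on the log2 scale, 46% of changes of 2 and 90% of changes of 4, with 3 false calls. The simulated 12 Gy array had the spread of the 15 Gy arrays and no shift of the whole array. Noise was independent between probe sets, with the measured SD of each taken as its true SD. Of each size, 1, 2, 4 and 6, 50 changes were added, and many large changes ease the adjustment. In the data, a probe set that differed by 5.24 (SE 0.24) had a limma adjusted p of 0.5135. These figures thus do not cover a 12 Gy array that varies otherwise, and they give no recovery rate for the real test. Figures used Python 3.11.15 and matplotlib 3.10.9.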

Additional observations from a re-analysis of the deposited data

How the results depend on the processing

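No paired analysis was possible because the doses share only replicate number 1. The count of 1 probe set past the adjusted threshold held under quantile normalization, median centring, cyclic loess, an added constant of 16 and both other priors, and was 0 without the 30% dimmest probe sets, of which copb2's was one, and 0 to 0 without a replicate. At an unadjusted p of 0.05 the 1383 became 881 without those dim probe sets, where fewer were tested, and 568 to 1885 without a replicate. The 34 probe sets at least 2-fold higher became 34 to 129 without a replicate, and 166 when 1.5-fold was asked. The 40 at least 2-fold lower became 42 to 72 without a replicate, 24 with the added constant and 166 at 1.5-fold. Fewer arrays make it easier to lie on 1 side in each. Of 285 values of 36 named genes, 282 kept their direction and stayed short of the threshold (lowest adjusted p = 0.159). The other 3 turned direction. Without a replicate, mmp9 ran from −0.25 to 0.13 (0.13 without replicate 2, 0.0019 without replicate 3) and hsp70.3 from −0.87 to 0.0018 (0.0018 without replicate 2). The cause was not tested. Of 42 list medians, 27 kept their sign under every alternative run, the clock list (−0.29 to −0.17) among them. The neuronal median ran from −0.74 to 0.04. The counts without a replicate for the lists were added after the data were seen.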

Other observations

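Several probe sets without a descriptive gene name, chosen after their values were seen, had large differences. The farthest above, which the annotation table did not list, stood at 4.39 at 12 Gy and at 9.37, 9.66 and 9.87 in 15 Gy replicates 1, 2 and 3. Both probe sets of the clone-named gene si:dkey-7c18.24 were lower at 15 Gy. The brighter of them stood at 11.37 at 12 Gy and at 8.84, 8.75 and 8.79 at 15 Gy, and the dimmer at 7.73 against 4.82, 4.77 and 4.74.

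Probe sets of a gene did not always agree. For calr, which encodes a chaperone of the endoplasmic reticulum, a probe set stood at 6.37 at 12 Gy and at 4.41, 4.58 and 4.58 at 15 Gy, while the other stood at 5.07 and at 5.28, 5.34 and 5.51. For cry2, both probe sets lay lower at 15 Gy, with differences of −1.64 and −1.37.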
